A study of Mus musculus with 19 samples.

Results

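The genes that Paneth cells use to make their antimicrobial secretion were followed in small intestinal crypts of fed and fasted mice with and without neurotensin. They were matched by symbol: the alpha-defensins Defa17, Defa21, Defa22, Defa24 and Defa30, the protease Mmp7, the lysozyme Lyz1, the ribonuclease Ang4 and the lectin Itln1, which makes 9 of the 55487 genes listed in each library (the members). RNA sequencing was run on crypts isolated from all but the distal part of the small intestine of 19 adult C57BL/6 mice of both sexes, 1 library a mouse. Ad libitum-fed Nt+/+ mice (n = 5) and ad libitum-fed Nt-/- mice (n = 4), which carry a germline deletion of the gene for the gut hormone neurotensin, received standard chow, and fasted Nt+/+ mice (n = 5) and fasted Nt-/- mice (n = 5) had water only for 48 h. The study fasted the mice to ask how neurotensin bears on the crypt under nutritional stress. Its abstract describes the fed and fasted mice of both genotypes as carrying an Lgr5-EGFP allele. None of the labels of the sequenced mice names this allele.

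Paneth cells sit at the base of the small intestinal crypt, between the Lgr5-positive stem cells, and store their products in large granules that they release toward the crypt lumen. Alpha-defensins (cryptdins) are made as inactive precursors, and in mice Mmp7 (matrilysin) cuts them into short, cysteine-rich peptides that disrupt bacterial membranes. Lyz1 (lysozyme) breaks the peptidoglycan of bacterial walls, Ang4 is an angiogenin-family ribonuclease with bactericidal activity, and Itln1 (intelectin) binds sugars on microbial surfaces. Paneth cells also make Wnt3, Egf and Notch ligands for neighbouring stem cells.

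The 5 defensin members lie within one cluster on chromosome 8, and how far their reads can be told apart depends on how alike they are. In GRCm38 coordinates of GENCODE M21, all on the plus strand, Defa21 lies at chr8:21025545-21026516, Defa30 at chr8:21134642-21135598, Defa22 at chr8:21162277-21163249, Defa17 at chr8:21655780-21656735 and Defa24 at chr8:21734494-21735471, each with 2 exons. The other members lie elsewhere: Lyz1 at chr10:117287797-117292868 on the minus strand with 4 exons, Mmp7 at chr9:7692090-7699585 on the plus strand with 6, Ang4 at chr14:51763878-51773590 on the minus strand with 2, and Itln1 at chr1:171518122-171535294 on the minus strand with 8. The last 111 coding bases of the 5 defensin transcripts (positions 172 to 282 of the coding sequence, the stop codon included), which code for the end of the precursor that carries the defensin peptide, are shown because they fall into 2 families. Capitals in Defa17 and Defa30 mark bases that differ from Defa24, and the capital in Defa21 marks the base that differs from Defa22.
Defa24: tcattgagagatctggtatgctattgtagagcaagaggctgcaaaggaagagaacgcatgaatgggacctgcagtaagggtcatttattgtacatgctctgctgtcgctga
Defa30: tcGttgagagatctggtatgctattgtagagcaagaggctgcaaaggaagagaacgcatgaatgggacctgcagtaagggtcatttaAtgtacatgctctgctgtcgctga
Defa17: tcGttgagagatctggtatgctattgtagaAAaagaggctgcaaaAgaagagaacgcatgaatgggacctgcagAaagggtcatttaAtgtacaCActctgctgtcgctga
Defa22: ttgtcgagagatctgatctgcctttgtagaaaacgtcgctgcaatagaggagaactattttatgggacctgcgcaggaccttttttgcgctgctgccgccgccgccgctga
Defa21: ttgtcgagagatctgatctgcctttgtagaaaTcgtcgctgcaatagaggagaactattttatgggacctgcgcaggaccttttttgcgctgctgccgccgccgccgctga
Each of the 5 stretches holds 6 cysteine codons. Over the whole coding sequence of 282 bases, compared position by position without gaps, Defa24 and Defa30 were 98.6% identical, Defa17 and Defa30 97.2%, Defa17 and Defa24 95.7%, and Defa21 and Defa22 99.3%. Between the families, identity was 78.7% to 81.9%. The coding sequence of Defa17 was 100% identical to that of Defa3, an alpha-defensin outside the 9 members.

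The reads were single ends of 100 bases, so a read can be placed in 1 gene only where 100 bases in a row are found in no other gene. Of the 298 such windows in the Defa17 transcript only 28 (9.4%) were unique, and 270 were shared with Defa3. In Defa21, 190 of 319 windows (59.6%) were unique, and in Defa22, 191 of 320 (59.7%), with the other 129 shared between that pair. Defa24 was unique over all 320 windows, Defa30 over 298 of 299, Mmp7, Ang4 and Itln1 over all of theirs, and Lyz1 over 1140 of 1164, with 24 shared with Lyz2. Values of Defa17, Defa21 and Defa22 as single genes therefore rest partly on how the authors' estimation split shared reads, and the sum of the 5 defensin members, and of all 39 genes whose symbol starts with Defa, is given beside them. The windows were compared without mismatches in GENCODE M21 transcripts, whereas the authors used Ensembl transcripts. How far reads with a mismatch fit more than 1 gene, as between Defa24 and Defa30, was not computed.

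Defa21 and Defa22 also share their promoter sequence. The 300 bases of sequence around their RefSeq start sites (GRCm38.p6, 250 before and 50 after) did not differ at any base. The 250 bases before the start of Defa21 (chr8:21025295-21025544, plus strand) and of Defa30 (chr8:21134400-21134649, plus strand) are shown because the pair and Defa30 varied differently between mice, as described below. Capitals mark matches to ATCAAAG, a core of the binding site of the Wnt effector TCF, searched on both strands.
Defa21: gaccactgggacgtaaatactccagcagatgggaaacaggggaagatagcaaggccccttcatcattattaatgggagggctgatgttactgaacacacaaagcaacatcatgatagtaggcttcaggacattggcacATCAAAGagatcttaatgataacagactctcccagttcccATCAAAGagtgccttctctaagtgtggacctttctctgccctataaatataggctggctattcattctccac
Defa30: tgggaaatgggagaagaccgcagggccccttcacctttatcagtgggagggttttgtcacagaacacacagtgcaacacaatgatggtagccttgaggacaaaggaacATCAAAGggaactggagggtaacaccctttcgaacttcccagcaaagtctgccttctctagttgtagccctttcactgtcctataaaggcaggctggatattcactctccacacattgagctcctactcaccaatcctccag
The Defa21 promoter, and so that of Defa22, had 2 matches, 112 and 72 bases before the start, and Defa30 had 1, 142 bases before it. Distances are counted from the RefSeq start sites. The 250 bases of Defa30 end at 21134649, inside the gene as placed by GENCODE (from 21134642). Its distance therefore cannot be compared directly with those of Defa21. Of 32851 promoter windows of 300 bases, 3.73% held a match, and of the 16 windows of genes whose symbol starts with Defa, 13 (81.2%) did. Of the other members with an entry, Mmp7 had a match just after its first start site, and Lyz1, Ang4 and Itln1 had none. Entries were used for 7 of the 9 members.

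Sequencing gave between 9059457 and 35068711 expected counts a mouse (median 18541819), and fasted Nt-/- replicates 2 and 4 were the shallowest. The smallest count behind any value of a member was 2730 (Mmp7), so counting error was small beside the spread between mice. Levels below are in counts-per-million (CPM), scaled by library size and composition, unless TPM is named. Nts, the deleted gene, stood at 4.98 to 8.59 CPM in Nt+/+ and at 0.144 to 0.793 CPM in Nt-/- mice. The genotype field of fasted Nt+/+ replicate 5 reads Nt-/- against its title, and its Nts level was 5.43 CPM. The defining markers of Paneth cells were abundant in every library: the 9 members together took 2.19% to 5.25% of all counts of a mouse.

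Per transcript length, in the transcripts-per-million scale (TPM), the members spanned almost 2 orders of magnitude. Over the 19 mice, Defa24 stood at 31327 ± 6730 TPM (SD, n = 19), Defa17 at 15351 ± 3914, Defa30 at 14974 ± 4477, Lyz1 at 6277 ± 1943, Defa22 at 5235 ± 1964, Defa21 at 4960 ± 1878, Itln1 at 4008 ± 1015, Ang4 at 3478 ± 1515 and Mmp7 at 428.6 ± 82.95 TPM. Defa24 exceeded Defa17 in 19 of 19 mice, by 1.56 to 2.87 times, Defa30 exceeded Lyz1 in 19 of 19, and Ang4 exceeded Mmp7 in 19 of 19, by 4.01 to 17.1 times. The other neighbours in this order changed places between mice. Defa17 exceeded Defa30 in 10 of 19, Lyz1 exceeded Defa22 in 16, Defa22 exceeded Defa21 in 12, Defa21 exceeded Itln1 in 13, and Itln1 exceeded Ang4 in 14. The 5 defensin members summed to 71847 ± 14571 TPM and all 39 Defa genes to 118280 ± 23550 TPM.

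The antimicrobial genes varied more between mice of a group than most genes did. Their biological coefficient of variation, edgeR's estimate of the spread between mice beyond counting error, was 22.8% for Mmp7, 24.9% for Defa17, 27.0% for Defa24, 29.2% for Itln1, 32.0% for Defa30, 32.7% for Lyz1, 38.5% for Defa22, 40.7% for Defa21 and 43.4% for Ang4. The median over the 17875 genes tested was 15.9%.

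The first comparison asked what 48 h without food did in Nt+/+ crypts. None of the 9 members passed the test (adjusted p of edgeR's quasi-likelihood test under 0.05, adjusted over all 17875 genes tested), against 21.6% of all genes tested, and none did at an unadjusted p under 0.05, against 34.1%. Fitted log2 fold changes ran from -0.17 (Defa17) to 0.54 (Defa22) with a median of 0.30, beside a median of -0.01 over all genes tested, 7 of the 9 members had values above 0, and their adjusted p-values ran from 0.246 to 0.909. In no member did the fasted and the fed mice separate without overlap, as they did for 14.6% of all genes tested.

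The second comparison asked the same in Nt-/- crypts. Only Defa17 passed, at a log2 fold change of -0.72 (SE 0.24, adjusted p = 0.032), which is 1 of 9 members against 25.2% of all genes tested. The other members ranged from -0.49 (Ang4) to 0.36 (Defa22), the median over the 9 was -0.01 beside -0.02 over all genes tested, and again no member separated the groups without overlap, against 21.3% of all genes tested. Because these are whole crypts, fewer Paneth cells and less of a transcript in each Paneth cell cannot be told apart.

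**Figure D1:**
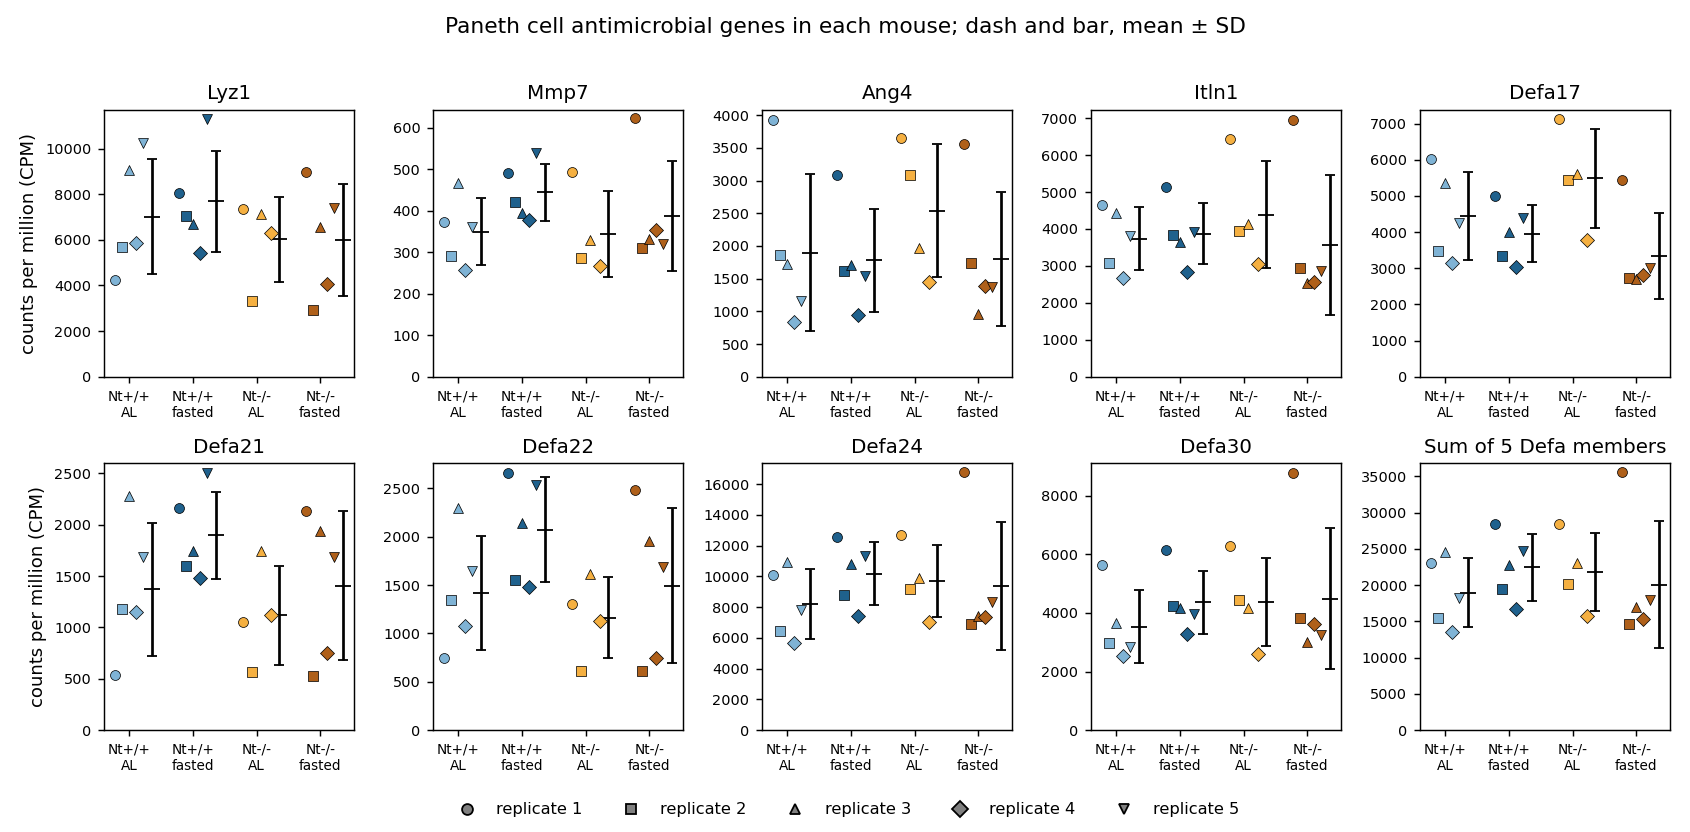
Level of each member and of the sum of the 5 defensin members in CPM (y axis, from 0) in the 4 groups (x axis; AL, ad libitum), 1 point a mouse with its marker shape for the replicate number, and the group's mean ± SD beside the points. The groups overlap in every panel, and fasted Nt-/- replicate 1 lies apart from its group in the panels of Mmp7, Itln1, Defa17, Defa24, Defa30 and the sum.

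Among the defensins, Defa17, Defa24 and Defa30 form the family with the highest levels. Defa17 stood at 6025, 3484, 5359, 3150 and 4247 CPM in fed Nt+/+ replicates 1 to 5 and at 7132, 5428, 5603 and 3786 CPM in fed Nt-/- replicates 1 to 4. Defa17 after fasting stood at 5001, 3342, 3997, 3030 and 4396 CPM in Nt+/+ replicates 1 to 5 and at 5437, 2731, 2690, 2823 and 3013 CPM in Nt-/- replicates 1 to 5. Fasted Nt-/- replicates 2 to 5 lay below all 4 fed Nt-/- mice, and replicate 1 lay among them. The mean fell from 5487 ± 1368 CPM (SD, n = 4) to 3339 ± 1180 CPM (SD, n = 5), 0.608 times the fed level (95% interval 0.432 to 0.857). In Nt+/+ mice, the fitted change of Defa17 was -0.17 (95% interval -0.64 to 0.30). The decrease in Nt-/- mice lost its call when fed Nt-/- replicate 1, 2 or 3 or fasted Nt-/- replicate 2, 3, 4 or 5 was left out (log2 fold change -0.96 to -0.56, adjusted p 0.00256 to 0.12 over the 9 mice). It also missed the threshold without the 2 shallowest libraries (-0.56, adjusted p = 0.166), with sex in the model (-0.68, adjusted p = 0.0689) and with the counts of Defa17 and Defa3 summed (-0.65, adjusted p = 0.0546). The fit with sex left out fasted Nt-/- replicate 5, which has no sex label. Because leaving out that mouse alone also ended the call, the loss cannot be ascribed to sex. The call of Defa17 was kept with DESeq2 and with either replicate number as a block. Over the 13 alternative settings other than leaving out 1 mouse, its log2 fold change in Nt-/- mice ran from -0.76 to -0.56 (adjusted p 0.000657 to 0.166).

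Defa24 stood at 10078, 6425, 10938, 5652 and 7828 CPM in fed Nt+/+ replicates 1 to 5 and at 12669, 9176, 9917 and 7054 CPM in fed Nt-/- replicates 1 to 4. Defa24 after fasting stood at 12533, 8777, 10781, 7403 and 11335 CPM in Nt+/+ replicates 1 to 5 and at 16775, 6931, 7412, 7363 and 8323 CPM in Nt-/- replicates 1 to 5. The highest value of all 19 mice was that of fasted Nt-/- replicate 1, and the other 4 fasted Nt-/- mice lay from 6931 to 8323 CPM. The fitted change of Defa24 with fasting was 0.31 (SE 0.25, adjusted p = 0.401) in Nt+/+ and -0.05 (SE 0.26, adjusted p = 0.916) in Nt-/- mice. Fed Defa30 values were 5628, 2981, 3667, 2523 and 2850 CPM in Nt+/+ replicates 1 to 5 and 6285, 4439, 4163 and 2601 CPM in Nt-/- replicates 1 to 4. Fasted Defa30 values were 6132, 4235, 4173, 3272 and 3975 CPM in Nt+/+ replicates 1 to 5 and 8768, 3813, 3011, 3617 and 3237 CPM in Nt-/- replicates 1 to 5. Replicate 1 was the highest mouse of each of the 4 groups for Defa30. Its fitted change was 0.30 (SE 0.29, adjusted p = 0.503) in Nt+/+ and 0.04 (SE 0.31, adjusted p = 0.95) in Nt-/- mice.

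Defa21 and Defa22, the family with the shared promoter, had lower levels and a wider spread. Defa21 stood at 542, 1184, 2281, 1155 and 1687 CPM in fed Nt+/+ replicates 1 to 5 and at 1051, 567, 1743 and 1121 CPM in fed Nt-/- replicates 1 to 4. Defa21 after fasting stood at 2163, 1594, 1740, 1486 and 2499 CPM in Nt+/+ replicates 1 to 5 and at 2136, 527, 1942, 752 and 1683 CPM in Nt-/- replicates 1 to 5. Within the fed Nt+/+ and the fasted Nt-/- group the highest mouse had over 4 times the level of the lowest (4.21 and 4.05 times), while the 5 fasted Nt+/+ mice lay within 1.68 times. Fed Defa22 values were 746, 1350, 2292, 1077 and 1643 CPM in Nt+/+ replicates 1 to 5 and 1306, 611, 1615 and 1124 CPM in Nt-/- replicates 1 to 4. Fasted Defa22 values were 2655, 1554, 2140, 1485 and 2533 CPM in Nt+/+ replicates 1 to 5 and 2478, 607, 1956, 744 and 1686 CPM in Nt-/- replicates 1 to 5. The lowest and the highest fasted Nt-/- mouse differed 4.08 times for Defa22, and the fed Nt+/+ mice 3.07 times. Fitted changes with fasting in Nt+/+ mice were 0.47 (95% interval -0.32 to 1.25) for Defa21 and 0.54 (-0.20 to 1.29) for Defa22. In Nt-/- mice they were 0.33 (-0.51 to 1.17) and 0.36 (-0.43 to 1.15).

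Summed, so that reads shared within the 5 need no split, the defensin members gave no call in any comparison. The summed level stood at 23019, 15424, 24537, 13557 and 18255 CPM in fed Nt+/+ replicates 1 to 5 and at 28442, 20221, 23041 and 15686 CPM in fed Nt-/- replicates 1 to 4. The fasted sum stood at 28484, 19501, 22832, 16677 and 24739 CPM in Nt+/+ replicates 1 to 5 and at 35593, 14610, 17011, 15300 and 17942 CPM in Nt-/- replicates 1 to 5. Fed and fasted mice overlapped in both genotypes. The log2 fold change of the sum with fasting was 0.24 (95% interval -0.26 to 0.75, adjusted p = 0.518) in Nt+/+ and -0.12 (-0.66 to 0.42, adjusted p = 0.782) in Nt-/- mice. These intervals reach from 0.833 to 1.68 times and from 0.634 to 1.33 times the fed level, so changes within them remain possible. For the sum of all 39 Defa genes the values were 0.19 (95% interval -0.32 to 0.69, adjusted p = 0.633) and -0.17 (-0.71 to 0.37, adjusted p = 0.684). Without the 2 shallowest libraries, the fitted values in Nt-/- mice turned to 0.11 (adjusted p = 0.826) for the 5 members and 0.09 (adjusted p = 0.859) for all Defa genes.

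Mmp7, whose product processes the defensins, had the smallest spread. Mmp7 stood at 372, 292, 467, 258 and 361 CPM in fed Nt+/+ replicates 1 to 5 and at 493, 286, 331 and 267 CPM in fed Nt-/- replicates 1 to 4. Mmp7 after fasting stood at 492, 421, 394, 377 and 540 CPM in Nt+/+ replicates 1 to 5 and at 624, 310, 332, 354 and 320 CPM in Nt-/- replicates 1 to 5. The 5 fasted Nt+/+ mice lay at or above 377 CPM, and 2 of them exceeded every fed Nt+/+ mouse. The mean was 445 ± 69.0 CPM (SD, n = 5) after 349.9 ± 81.0 CPM (SD, n = 5) in fed mice, a log2 fold change of 0.35 (95% interval -0.08 to 0.77) whose adjusted p of 0.246 was the lowest among the 9 members. In Nt-/- mice it was 0.17 (SE 0.22, adjusted p = 0.616).

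Lyz1 had nearly the same mean in fed (6028 ± 1861 CPM, SD, n = 4) and fasted (5991 ± 2470 CPM, SD, n = 5) Nt-/- mice, with a wide spread. Lyz1 stood at 4257, 5686, 9058, 5859 and 10248 CPM in fed Nt+/+ replicates 1 to 5 and at 7348, 3318, 7132 and 6313 CPM in fed Nt-/- replicates 1 to 4. Lyz1 after fasting stood at 8035, 7043, 6697, 5415 and 11282 CPM in Nt+/+ replicates 1 to 5 and at 8996, 2932, 6557, 4068 and 7401 CPM in Nt-/- replicates 1 to 5. The 2 fed Nt+/+ males, replicates 3 and 5, lay above the 3 fed Nt+/+ females, whose highest value was 5859 CPM, and among fasted Nt+/+ mice 1 of the 2 males lay below 2 of the females. The fitted change of Lyz1 with fasting was 0.13 (95% interval -0.49 to 0.76) in Nt+/+ and -0.01 (-0.67 to 0.66) in Nt-/- mice.

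Ang4 stood at 3921, 1858, 1728, 834 and 1157 CPM in fed Nt+/+ replicates 1 to 5 and at 3658, 3091, 1966 and 1450 CPM in fed Nt-/- replicates 1 to 4. Ang4 after fasting stood at 3093, 1613, 1707, 952 and 1545 CPM in Nt+/+ replicates 1 to 5 and at 3563, 1737, 955, 1385 and 1379 CPM in Nt-/- replicates 1 to 5. For Ang4, replicate 1 was the highest mouse in each of the 4 groups, and within fed Nt+/+ mice the levels spanned 4.70 times. Its fitted change with fasting was -0.09 (95% interval -0.93 to 0.75) in Nt+/+ and -0.49 (-1.38 to 0.39) in Nt-/- mice, the widest intervals among the members. Fed Itln1 values were 4654, 3078, 4438, 2668 and 3821 CPM in Nt+/+ replicates 1 to 5 and 6431, 3953, 4141 and 3043 CPM in Nt-/- replicates 1 to 4. Fasted Itln1 values were 5127, 3838, 3637, 2849 and 3928 CPM in Nt+/+ replicates 1 to 5 and 6961, 2938, 2539, 2568 and 2866 CPM in Nt-/- replicates 1 to 5. Fasted Nt-/- replicates 2 to 5 lay below all 4 fed Nt-/- mice for Itln1, and replicate 1 lay above them. Its fitted change was 0.05 (SE 0.27, adjusted p = 0.909) in Nt+/+ and -0.30 (SE 0.28, adjusted p = 0.486) in Nt-/- mice. Without fasted Nt-/- replicate 1 the value for Itln1 in Nt-/- mice was -0.69 (adjusted p = 0.0247), so that this mouse decided the call.

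**Figure D2:**
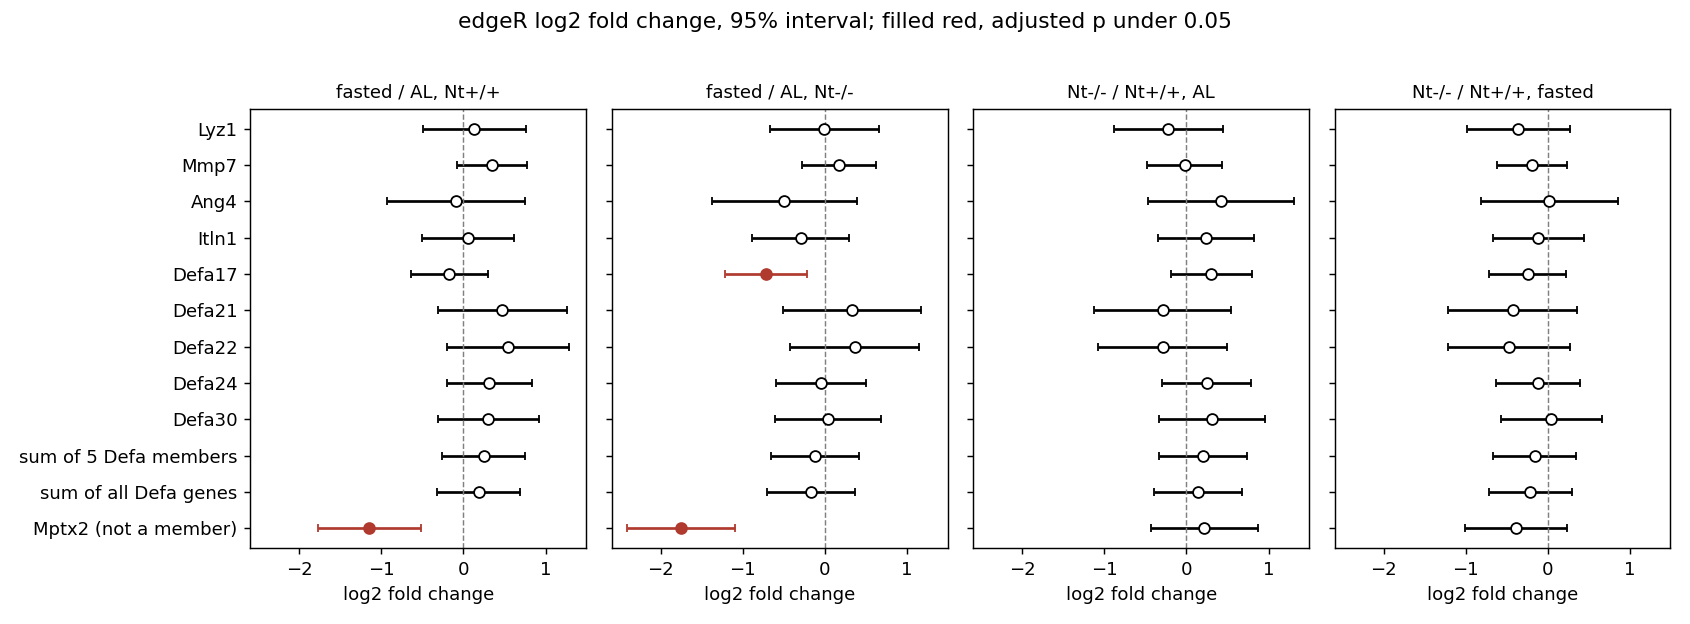
Fitted log2 fold change (x axis) with its 95% interval in 4 comparisons (panels) for the 9 members, both defensin sums and Mptx2, another Paneth cell product (rows). Filled red points passed the adjusted p threshold: Mptx2 in both fasting comparisons and Defa17 in Nt-/- mice.

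The genotype comparisons asked whether crypts without neurotensin differed in these genes. Fed, none of the 9 members passed, against 0.00559% of all genes tested (1 gene), and none did at an unadjusted p under 0.05, against 1.67%. Fitted values of Nt-/- against Nt+/+ ran from -0.29 (Defa21) to 0.42 (Ang4) with a median of 0.24, and every adjusted p was 1. Fasted, again 0 of 9 passed against 0.00559% of all genes tested. Fitted values ran from -0.47 (Defa22) to 0.04 (Defa30) with a median of -0.20, beside -0.01 over all genes tested, and 7 of the 9 were below 0 (adjusted p 0.751 to 0.996). At an unadjusted p under 0.05, 0 of the 9 passed against 9.14% of all genes tested. No member separated the genotypes without overlap, fed or fasted, against 0.694% and 1.56% of all genes tested. The summed defensin members differed by 0.20 (95% interval -0.33 to 0.74) in fed and by -0.16 (-0.67 to 0.35) in fasted mice.

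The effect of fasting was also compared between the genotypes. The estimate (Nt-/- minus Nt+/+) was below 0 for 9 of 9 members, from -0.55 (Defa17, 95% interval -1.23 to 0.14) to -0.14 (Defa21), and none passed: every adjusted p was 1, and 0% of all genes tested passed, with 2.71% at an unadjusted p under 0.05 and 0 of the members. The 9 estimates come from the same mice and vary together, and without the 2 shallowest libraries those of Lyz1, Defa21 and Defa22 turned to 0.21, 0.31 and 0.27 (SE 0.40, 0.48 and 0.44). The call of Defa17 in Nt-/- and its absence in Nt+/+ mice thus do not show a difference between them.

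Across the 19 mice the members fell into groups that went up and down together, and these followed the sequence families only in part. Pearson's r was computed on log2 CPM for all 36 pairs of members, with permutation p-values (100000 permutations, smallest possible 1e-05) adjusted over the pairs. Defa21 and Defa22 had r = 0.97 (Spearman's rho 0.96, permutation p = 1e-05 for each, the smallest they can give), 0.97 without the 2 mice farthest from the median of Defa21, and they share reads and a promoter sequence. Lyz1, which shares neither, had r = 0.90 with Defa21 (rho 0.83, adjusted permutation p = 5.14e-05) and 0.90 with Defa22 (rho 0.85), and 0.83 and 0.82 without the 2 farthest mice. Ang4 and Defa30 had r = 0.86 (rho 0.82, adjusted permutation p = 5.14e-05), 0.83 without the 2 farthest mice, and Itln1 had r = 0.90 with Defa24, 0.89 with Defa17 and 0.87 with Defa30. Ang4 and Defa21 had r = -0.24 (rho -0.11, adjusted permutation p = 0.403), -0.02 without the 2 farthest mice, and Lyz1 and Ang4 r = -0.09 (adjusted permutation p = 0.788). Mmp7 lay between both sets, with r = 0.58 with Lyz1 (adjusted permutation p = 0.0176), 0.63 with Defa22 (0.00936), 0.75 with Itln1 and 0.87 with Defa24. The 15 pairs with r above 0.70 had adjusted permutation p-values of at most 0.000888 for r and 0.0133 for rho. All pairs share their libraries, so the make-up of a library bears on both genes of a pair. The permutations shuffled all 19 mice freely, across groups and file-name numbers. Their p-values therefore do not allow for what mice of the same group or number have in common, and can be too small.

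**Figure D3:**
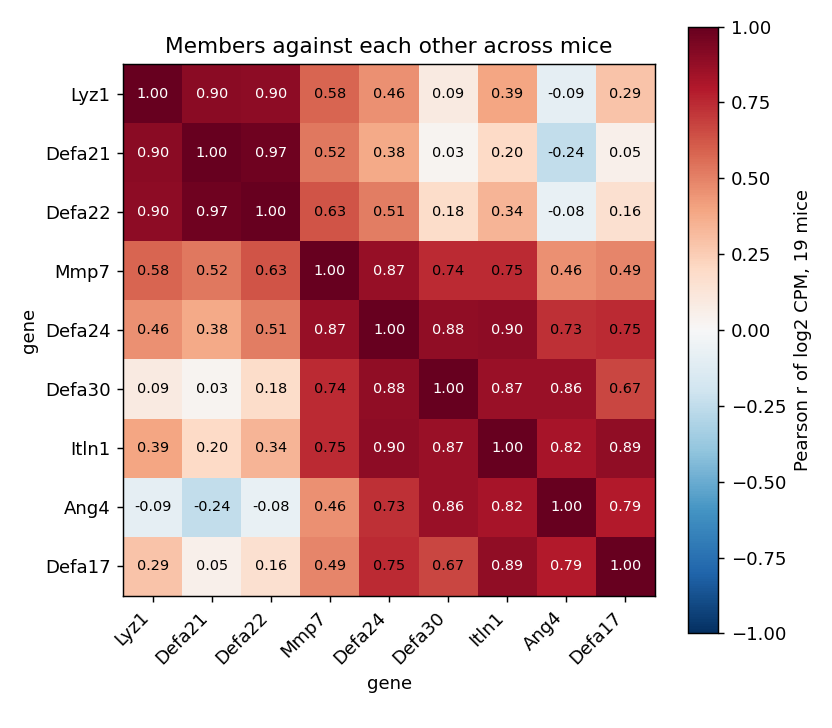
Pearson's r of log2 CPM between the 9 members (both axes, the same genes in the same order) over 19 mice, on a colour scale from -1 to 1 with r printed in each cell. Lyz1, Defa21 and Defa22 form a block in the upper left corner, and Defa24, Defa30, Itln1, Ang4 and Defa17 a block in the lower right corner, with values near 0 between Ang4 and the first block.

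Deviations from the group means kept both sets but drew some pairs closer, and this held in part once the number in the file names was taken out. From log2 CPM to deviations, r of Defa17 went from 0.75 to 0.98 with Defa24 and from 0.67 to 0.92 with Defa30. That of Mmp7 went from 0.49 to 0.89 with Defa17 and from 0.75 to 0.91 with Itln1. With Defa21 and Defa22, r of Mmp7 went from 0.52 to 0.42 and from 0.63 to 0.54, so Mmp7 lay nearer the set of Defa24. On these deviations r was 0.92 for Lyz1 and Defa21, 0.93 for Ang4 and Defa30, 0.94 for Itln1 and Defa17, -0.19 for Ang4 and Defa21 and -0.02 for Defa21 and Defa30. With the number taken out as well, r was 0.95 for Lyz1 and Defa21 and -0.09 for Ang4 and Defa21. Ang4 then went from 0.93 to 0.78 with Defa30 and from 0.83 to 0.49 with Itln1. Itln1 went from 0.41 to 0.67 with Lyz1 and from 0.25 to 0.56 with Defa21, above its value with Ang4, and stood at 0.94 with Defa24 and 0.86 with Defa17.

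**Figure D4:**
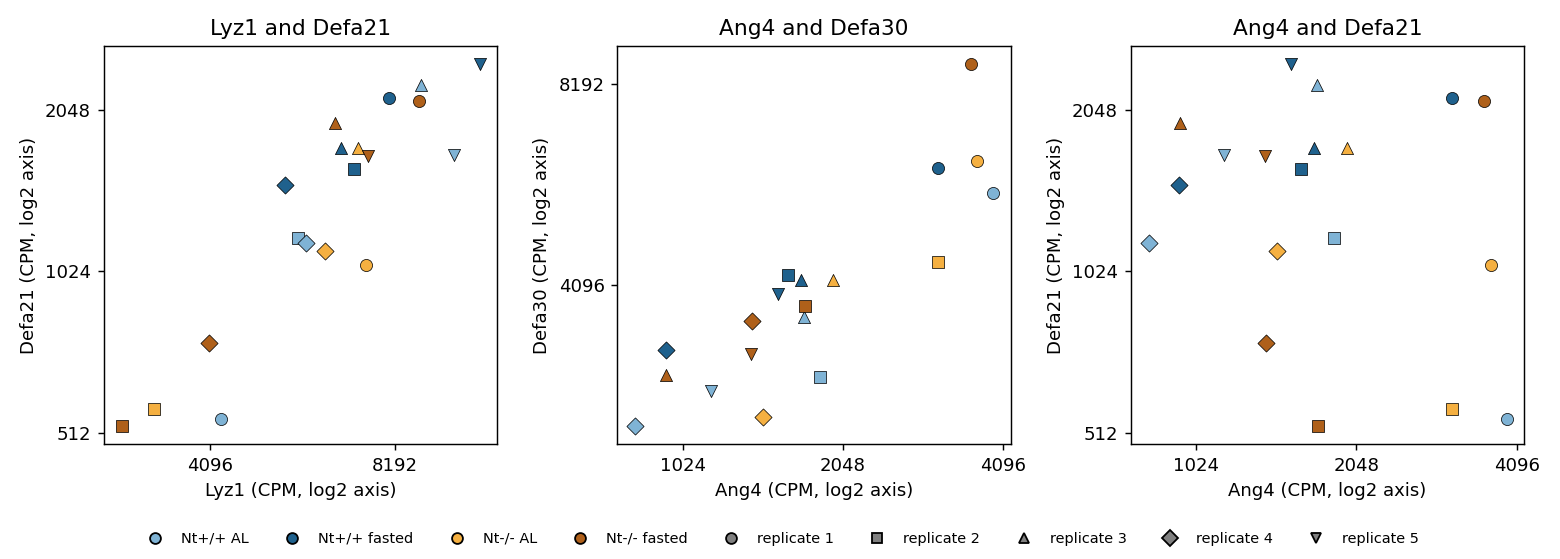
Level of 1 member against another in each of the 19 mice (CPM, log2 axes), coloured by group and shaped by replicate number. Lyz1 and Defa21 (r = 0.90) and Ang4 and Defa30 (r = 0.86) lie along a line, whereas Ang4 and Defa21 (r = -0.24) do not, and the 4 mice with replicate number 1 are at the right of the panels with Ang4.

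The genes outside the members and outside Defa whose log2 CPM was most like that of Lyz1 over the 19 mice were Lyz2 (r = 0.89), Gm7861 (0.87), Abcc4 (0.81), Gm15293 (0.79) and Mmp20 (0.78). Lyz2 stood at only 1.93 to 6.81 CPM and shares 24 windows of 100 bases with Lyz1, and RefSeq lists Gm7861 and Gm15293 as synonyms of the alpha-defensins Defa43 and Defa41, so the rule on symbols had not caught them. Most like the sum of the 5 defensin members were Pla2g2f (0.94), Ggh (0.93), 5330417C22Rik (0.93), Hpd (0.93) and Txndc5 (0.92). On deviations from the group means the list for the sum was led by Pglyrp1 (0.97), a peptidoglycan recognition protein, Ptprn2 (0.96) and Txndc5 (0.95). These were picked from all genes tested as the closest, and carry no test.

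Calls among the other alpha-defensins were no more frequent than among all genes in Nt+/+ mice and about as frequent in Nt-/- mice. Of 34 further genes whose symbol starts with Defa, 6 were at 0 in all mice and 23 could be tested; how far their reads are shared with other copies was not computed. In Nt+/+ mice 1 rose and 2 fell, and in Nt-/- mice 1 rose and 5 fell, 3 of 23 against 21.6% of all genes tested and 6 of 23 against 25.2%, with medians over the 23 of 0.14 and -0.06, beside 11.2% of all genes tested that rose and 10.4% that fell in Nt+/+ and 12.5% and 12.6% in Nt-/- mice. Defa35 rose from 8.64 to 24.0 CPM in Nt+/+ (log2 fold change 1.49, SE 0.36, adjusted p = 0.0063) and from 6.59 to 21.1 CPM in Nt-/- mice (1.69, SE 0.40, adjusted p = 0.00393). Defa26 fell from 132.7 to 81.7 CPM in Nt+/+ (-0.70, SE 0.25, adjusted p = 0.0479) and from 165.3 to 61.9 CPM in Nt-/- mice (-1.41, SE 0.26, adjusted p = 0.000567). The pseudogene Defa-ps6 fell by 1.01 and 1.99 on the log2 scale (adjusted p = 0.0414 and 0.000579). Defa31 fell from 3080 ± 692 to 1645 ± 381 CPM in Nt-/- mice (-0.91, SE 0.20, adjusted p = 0.00202), and its value in Nt+/+ mice was -0.36 (adjusted p = 0.175). In Nt+/+ mice the calls of Defa26 and Defa-ps6 depended on single mice (adjusted p up to 0.136 and 0.12 with 1 of the 10 left out), whereas those of all 4 in Nt-/- mice and of Defa35 in both did not. None of the 23 passed in the genotype comparisons or for the difference between the genotypes in the fasting effect.

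Of 21 other genes ascribed to Paneth cells, most of them for secreted products, 19 were listed in the files and 14 could be tested. The list was drawn from textbook knowledge, but with earlier results of these data known, and several of its genes are also expressed by other epithelial cells. In Nt+/+ mice 1 rose and 1 fell, and in Nt-/- mice 1 rose and 2 fell (medians -0.16 and -0.29), so 2 and 3 of 14 were called against 21.6% and 25.2% of all genes tested. Mptx2, a pentraxin made by Paneth cells, stood at 954, 661, 892, 418 and 593 CPM in fed and at 430, 347, 278, 195 and 340 CPM in fasted Nt+/+ replicates 1 to 5. It stood at 1206, 852, 727 and 484 CPM in fed Nt-/- replicates 1 to 4 and at 435, 278, 161, 183 and 157 CPM in fasted Nt-/- replicates 1 to 5. The groups overlapped by 1 fasted and 1 fed mouse in Nt+/+ and did not overlap in Nt-/- mice. Mptx2 fell to 0.452 times its fed level in Nt+/+ (95% interval 0.293 to 0.697, adjusted p = 0.00932) and to 0.297 times in Nt-/- mice (0.188 to 0.469, adjusted p = 0.000473), without a difference between the genotypes that passed (-0.60, 95% interval -1.50 to 0.29). Reg3a, a C-type lectin, rose from 28.1 to 53.6 CPM (0.93, SE 0.24, adjusted p = 0.00938) and from 31.7 to 56.5 CPM (0.84, SE 0.26, adjusted p = 0.0229). Copz2, a coatomer subunit and not a secreted product, fell in Nt-/- mice (-0.99, SE 0.24, adjusted p = 0.0045), with a value of -0.27 (adjusted p = 0.426) in Nt+/+ mice. Leaving out 1 mouse ended the call of Reg3a in Nt-/- mice in 3 of 9 cases (adjusted p up to 0.0842) and no other of these calls.

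Of 24 genes of Paneth cell fate, granules and secretion, all tested, 2 rose and 3 fell in Nt+/+ and 1 rose and 2 fell in Nt-/- mice (medians -0.05 and -0.14), so 5 and 3 of 24 were called against 21.6% and 25.2% of all genes tested. Slc30a2, a zinc transporter of Paneth cell granules, rose from 36.8 ± 4.02 to 91.4 ± 22.3 CPM in Nt+/+ (1.31, SE 0.15, adjusted p = 6.22e-06) and from 38.0 ± 7.74 to 103.7 ± 13.1 CPM in Nt-/- mice (1.44, SE 0.16, adjusted p = 4.37e-06). In Nt+/+ mice the autophagy gene Atg5 fell by 0.27 (adjusted p = 0.022), the signalling kinase Ripk2 by 0.51 (adjusted p = 0.0301) and the immunity GTPase Irgm1 by 0.73 (adjusted p = 0.0313) on the log2 scale. Their values in Nt-/- mice were -0.08, -0.11 and -0.42 (adjusted p = 0.536, 0.701 and 0.228). With 1 mouse left out, adjusted p-values reached 0.0635 for Atg5, 0.0814 for Ripk2 and 0.132 for Irgm1, and at most 4.4e-05 for Slc30a2. Of 8 genes for niche signals, 2 rose and 0 fell in Nt+/+ and 1 rose and 0 fell in Nt-/- mice, counts too small to set apart from these shares. Bst1, an ectoenzyme of Paneth cells that makes cyclic ADP ribose, rose from 30.5 ± 10.3 to 60.0 ± 27.5 CPM (0.98, SE 0.30, adjusted p = 0.0257) and from 32.0 ± 10.1 to 85.9 ± 17.6 CPM (1.42, SE 0.33, adjusted p = 0.00344). Egf rose by 0.62 (adjusted p = 0.0371) in Nt+/+ mice and had a value of 0.52 (adjusted p = 0.0858) in Nt-/- mice, and its call in Nt+/+ mice was lost in 8 of the 10 fits without 1 mouse (adjusted p up to 0.0947), that of Bst1 in 3 (up to 0.0954).

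Among markers of other crypt and villus cells, most of those of absorptive enterocytes rose and most of those of proliferating cells fell with fasting. Over all genes tested, 21.6% were called with fasting in Nt+/+ and 25.2% in Nt-/- mice. The counts for stem cell, enteroendocrine, tuft and leukocyte markers were too small to set apart from these shares. Of 8 markers of absorptive enterocytes, 5 rose in Nt+/+ and 7 in Nt-/- mice, and none fell; their summed level ranged from 4267 to 8439 CPM in fed and from 7979 to 16290 CPM in fasted Nt+/+ mice, and from 6205 to 9131 and from 14280 to 18880 CPM in Nt-/- mice. Of 6 markers of proliferating cells, 4 fell in Nt+/+ and 5 in Nt-/- mice, with summed levels of 1523 to 1737 against 979.3 to 1327 CPM and of 1465 to 1594 against 859.1 to 1118 CPM. Of 8 goblet cell markers, 1 rose and 2 fell in Nt+/+ and 1 rose and 4 fell in Nt-/- mice, and their summed level went from 9387 to 13610 CPM in fed Nt+/+ mice against 9646 to 11370 CPM in fasted ones, and from 9630 to 15410 against 7758 to 10360 CPM in Nt-/- mice. Of 6 stem cell markers, 0 rose in either genotype, and 1 and 2 fell. All 6 markers of pancreas, an organ that shares secretory products with Paneth cells, were under 1 CPM in every mouse, with 2 at 0 throughout, and 6 stroma markers summed to at most 10.5 CPM. Enteroendocrine (1 of 5 rose in each genotype), tuft (0 of 4) and leukocyte markers (1 of 6 fell in each) are given as counts alone. The part of these cell types in the members' values was not tested.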

How the data were processed

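RNA of isolated crypts was sequenced after ribosomal RNA depletion as single-end reads of 100 bases, 1 library from each of 19 mice. The authors trimmed the reads with Trimmomatic 0.39 and estimated expression with RSEM on Ensembl GRCm38 transcripts, and deposited expected counts and TPM per gene; RSEM splits reads shared by paralogs by a model, so near-identical defensins are uncertain as single genes. From these deposited expected counts, rounded to whole numbers, edgeR 4.0.16 (R 4.3.3) was run with filterByExpr (17875 genes kept), TMM factors and 1 mean per group; CPM values use the same factors. Quasi-likelihood tests gave p-values, adjusted by Benjamini-Hochberg over all genes tested, and 95% intervals. Each defensin sum replaced its genes in the table before the fit. Mice are separate animals; per the study's methods, controls were littermates matched for age and sex, without a statement of which mice share a litter. Library depth was 9059457 to 35068711 counts.

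The 9 members and the gene lists were chosen with earlier results of these data known. All members are named; in each Paneth list, the genes called in either fasting comparison with the 4 smallest p in Nt+/+ mice are named, and the 5 genes most like Lyz1 or the sum. On simulated counts for the fasting comparison in Nt+/+ mice (17567 genes), 78 of 100 genes changed by 1 and 99 of 100 changed by 2 on the log2 scale were recovered. The changed genes were drawn from all genes with a mean of 1 CPM or more, each with its own spread between mice. The members vary more (22.8% to 43.4%, against a median of 15.9% over all genes tested), so these shares do not give the recovery for the members. Replicate libraries differed by more than sampling noise, with a chi-square of at least 15.27 per degree of freedom. Alternatives were other filters, scalings, DESeq2 1.42.0, sex, replicate blocks and leaving out mice. Sequences come from GENCODE M21 and RefSeq.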

Additional observations from a re-analysis of the deposited data

Results flagged for a closer look

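In fasted Nt-/- mice, 7 values of replicate 1, a female, lay apart from the other 4 mice of its group, farther than Dixon's 95% limit for 5 samples. Mmp7 stood at 624 CPM with the next mouse at 354 CPM, Itln1 at 6961 with the next at 2938, Defa17 at 5437 with the next at 3013, Defa24 at 16775 with the next at 8323, and Defa30 at 8768 with the next at 3813 CPM. The sum of the 5 defensin members stood at 35593 CPM with the next at 17942, and the sum of all Defa genes at 55422 CPM with the next at 29564. These 7 were found among 44 groups of values checked, chance gives about 1 in 20, and the 7 share genes and 1 library. Its depth was 19889820 counts, and the 9 members took 5.25% of them. Lyz1, Ang4, Defa21 and Defa22 of the same mouse were the highest of its group but within the limit. Without this mouse, the log2 fold change with fasting in Nt-/- mice was -0.69 for Itln1 (adjusted p = 0.0247), -0.96 for Defa17 (adjusted p = 0.00256) and -0.43 for the sum of the 5 defensin members (adjusted p = 0.146, not past the threshold).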

How the results depend on the processing

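Of 1966 repeats of 86 values under other settings, 1797 kept direction and side of the threshold, 78 turned direction, 71 lost and 7 gained a call, and 13 counts moved. None of the turned values of a member or sum was past the threshold. All 86 kept both under upper quartile scaling, under TMM without Defa genes, and in genes with 10 or more counts per mouse throughout; the median over all genes moved by at most 0.022. In Nt-/- mice, 0 members were called with fasting under sex as a covariate, female mice only, Nt+/+ fasted replicate 5 grouped as Nt-/-, only the groups compared, and without the 2 shallowest mice (chosen after seeing the data), with Defa17 at -0.68 (adjusted p = 0.0689), -0.72 (0.16), -0.64 (0.0522), -0.71 (0.0518) and -0.56 (0.166); leaving out 1 mouse gave 0 to 2. The cause was not tested. Fasted Nt-/- replicate 5, which has no sex label, was absent from the fits with sex as a covariate and of female mice only. Female mice only ended 11 calls and no filter on low counts ended 3, in both cases mostly or only of genes outside the 9. The 3 fits with summed counts of near-identical genes were also added after seeing the data.

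Values that turned direction, all log2 fold changes, were as follows. Without the 2 shallowest mice, fasting in Nt-/- mice gave 0.35 for Lyz1, 0.16 for Defa24, 0.11 for the 5 summed defensins and 0.09 for all Defa genes, the genotype comparison in fasted mice gave 0.09 for Itln1, 0.02 for Defa21, 0.09 for Defa24, 0.07 for the 5 summed defensins and 0.04 for all Defa genes, and the difference gave 0.21, 0.31 and 0.27 for Lyz1, Defa21 and Defa22. In females, the fed genotype comparison gave 0.17, 0.27, 0.22 and 0.15 for Lyz1, Mmp7, Defa21 and Defa22, and the fasted one 0.08, 0.11 and 0.02 for Itln1, Defa24 and the 5 summed defensins. With Nt+/+ fasted replicate 5 as Nt-/-, Lyz1 gave -0.05 and 0.19 with fasting in Nt+/+ and Nt-/- mice, 0.02 between fasted genotypes and 0.24 for the difference, where Defa21 and Defa22 gave 0.16 and 0.06, and Ang4 and Defa30 gave -0.06 and -0.02 between fasted genotypes. Ang4 gave -0.08 there with sex in the model. Lyz1 in Nt-/- mice gave 0.01 with DESeq2 and 0.01 with only the groups compared.

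With 1 mouse left out, fasting in Nt+/+ mice gave -0.05 to 0.31 for Lyz1, -0.39 to 0.35 for Ang4 and -0.07 to 0.15 for Itln1. In Nt-/- mice it gave -0.21 to 0.16 for Lyz1, -0.07 to 0.40 for Mmp7, -0.37 to 0.10 for Defa24, -0.35 to 0.27 for Defa30 and -0.43 to 0.03 for the 5 summed defensins. Between fed genotypes, Mmp7 gave -0.25 to 0.10, Itln1 -0.01 to 0.38 and all Defa genes 0.00 to 0.28, and between fasted genotypes Ang4 gave -0.39 to 0.31, Itln1 -0.51 to 0.00 and Defa30 -0.35 to 0.20. The difference gave -0.34 to 0.04 for Lyz1, -0.41 to 0.05 for Mmp7, -0.40 to 0.16 for Defa21 and -0.44 to 0.02 for Defa22.

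Fed controls were littermates of fasted mice, but no source used here says which mice share a litter or that a number marks one; same-numbered mice of different groups had a mean correlation of deviations of 0.184 by titles (19 of 27 pairs over 0.1) and 0.227 by file names (24 of 27). With the replicate number as a block, all-gene calls with fasting rose from 3862 to 5006 (titles) and 5484 (file names) in Nt+/+ and from 4499 to 5657 and 5672 in Nt-/- mice, and members called stayed at 0 and 1. Under these blocks Ang4 gave 0.00 and 0.00 with fasting in Nt+/+ mice and -0.01 and -0.02 between fasted genotypes, and Defa30 -0.03 and -0.04 there. Both blocks gained the calls of Irgm1 in Nt-/- mice (-0.39 and -0.39, adjusted p = 0.00908 and 0.00776) and of Defa31 in Nt+/+ mice (-0.37 and -0.38, adjusted p = 0.0498 and 0.048). Between fasted genotypes DESeq2 called 101 genes where edgeR called 1, and 0 members with either.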

Other observations

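Further genes of the Paneth cell lists passed in 1 of the fasting comparisons. Xbp1, a transcription factor of the unfolded protein response that secretory cells need, rose from 160.0 ± 14.1 to 198.4 ± 27.7 CPM (SD, n = 5 each) in Nt+/+ mice (log2 fold change 0.31, adjusted p = 0.0347), with 0.21 (adjusted p = 0.18) in Nt-/- mice. In Nt-/- mice Creb3l1, a transcription factor bound to the endoplasmic reticulum, fell from 58.7 ± 16.4 (n = 4) to 34.9 ± 12.7 CPM (n = 5; -0.74, adjusted p = 0.0311), with -0.23 (adjusted p = 0.516) in Nt+/+ mice. The kinase gene Lrrk2, with 390 counts over all libraries together, also fell in Nt-/- mice (-1.59, adjusted p = 0.029). Its level went from 1.687 ± 1.685 CPM (SD, n = 4) to 0.5375 ± 0.2705 CPM (SD, n = 5). The fed SD was about as large as the fed mean, so the fed mice differed widely. Defa28 fell in Nt-/- mice from 4.61 to 2.03 CPM (-1.14, adjusted p = 0.0291) and Defa-ps1 from 3.00 to 1.42 CPM (-1.03, adjusted p = 0.0445). None of these passed for the difference between the genotypes in the fasting effect. Whether these calls hold with 1 mouse left out or under other settings was not tested.

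The number in the file names of the mice went with the level of some members. Mice numbered 1 were the highest of their group in 4 of 4 groups for Ang4, Itln1, Defa17 and Defa30, and in 3 of 4 for Defa24 and the sum of the 5 defensin members. Their mean deviation from the group means on the log2 scale was 0.98 for Ang4, 0.74 for Defa30, 0.62 for Itln1, 0.51 for Defa17 and 0.51 for Defa24, against 0.13 for Lyz1 and -0.04 for Defa21. What the number stands for is not stated in the sources used here. All labelled males had file number 3 or 5 and all labelled females number 1, 2 or 4. Being highest of their group, mice numbered 1 therefore also exceeded the other females for the 4 genes named first, whereas a difference between males and females cannot be told apart from one between these numbers. Lyz1 stood at 9058 to 10248 CPM in the 2 fed Nt+/+ males and at 4257 to 5859 CPM in the 3 females, and in fasted Nt+/+ mice at 6697 to 11282 CPM in 2 males and 5415 to 8035 CPM in 3 females.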
